A study of Mus musculus with 6 samples.

Results

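The genes described here are 32 genes of fatty acid and triglyceride synthesis, listed by symbol for their known roles, out of 28529 genes in a count table of epididymal white adipose tissue (eWAT). They comprise 5 genes of acetyl-CoA supply, 6 of NADPH supply, 5 of chain building, 6 of elongation and desaturation, 7 of triglyceride assembly and 3 regulators. RNA sequencing was carried out on the tissue of 6 male mice, 1 library per mouse. The labels give the strain as C57BL/6, the wild type as C57Bl6/J, and the knockout was made in the C57Bl/6J background. The 3 wild-type mice (WT1 to WT3) and the 3 Maf1-/- mice (KO1 to KO3) were 22 to 24 weeks old, had free access to a breeder chow and were fasted overnight before the tissue was taken. The knockout was a whole-body one in which the entire coding region of Maf1, a repressor of RNA polymerase III, was deleted, so every cell type of the fat pad lacked the gene and not only the adipocytes. All 32 genes were in the table and had enough counts to be tested. The comparison of interest was their level in knockout against wild-type eWAT.

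White adipocytes store energy as triglyceride, and they can make the fatty acids themselves from glucose. Citrate leaves the mitochondrion, is cleaved to cytosolic acetyl-CoA, and is carboxylated and joined into palmitate at the expense of NADPH. Palmitate is elongated and desaturated, and the acyl chains are then placed one after another on a glycerol backbone. The transcription factors SREBP-1c and ChREBP raise the transcription of most of these enzymes after feeding, when insulin and glucose are high, and their activity is low during a fast.

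The promoters of 4 genes are shown first, since Fasn and Pnpla3 varied most widely between mice and were highest in the same mouse, whereas Fads2 and Mid1ip1 also varied widely but were lowest in WT1. Each sequence runs from 250 bases before to 50 bases after the annotated start, 300 bases in all, and comes from RefSeq in build GRCm38.p6, which is not the build of the counts. Capitals mark the CCAAT box (CCAAT on the strand shown, or ATTGG where it lies on the other strand), the motif bound by NF-Y, a factor that acts together with SREBP. The Fasn window is chr11:120824498-120824797 on the minus strand, the Pnpla3 window chr15:84167566-84167865 on the plus strand, the Fads2 window chr19:10101454-10101753 on the minus strand and the Mid1ip1 window chrX:10717115-10717414 on the plus strand.
Fasn: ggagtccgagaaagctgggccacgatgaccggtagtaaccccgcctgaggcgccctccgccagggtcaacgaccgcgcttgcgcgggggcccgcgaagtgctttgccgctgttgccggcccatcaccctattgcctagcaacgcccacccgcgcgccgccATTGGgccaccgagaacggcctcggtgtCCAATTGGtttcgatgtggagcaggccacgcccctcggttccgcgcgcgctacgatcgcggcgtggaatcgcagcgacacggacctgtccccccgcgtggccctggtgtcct
Pnpla3: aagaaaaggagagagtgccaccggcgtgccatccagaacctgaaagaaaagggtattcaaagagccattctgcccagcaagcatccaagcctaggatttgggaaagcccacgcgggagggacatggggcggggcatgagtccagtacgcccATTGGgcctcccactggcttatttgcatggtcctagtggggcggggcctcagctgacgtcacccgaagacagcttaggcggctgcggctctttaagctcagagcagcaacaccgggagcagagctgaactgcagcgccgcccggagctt
Fads2: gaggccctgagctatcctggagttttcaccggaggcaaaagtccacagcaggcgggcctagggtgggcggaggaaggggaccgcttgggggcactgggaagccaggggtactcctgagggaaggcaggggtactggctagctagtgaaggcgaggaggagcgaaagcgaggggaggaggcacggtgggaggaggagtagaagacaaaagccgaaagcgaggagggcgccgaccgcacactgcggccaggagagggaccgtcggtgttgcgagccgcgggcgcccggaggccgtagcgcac
Mid1ip1: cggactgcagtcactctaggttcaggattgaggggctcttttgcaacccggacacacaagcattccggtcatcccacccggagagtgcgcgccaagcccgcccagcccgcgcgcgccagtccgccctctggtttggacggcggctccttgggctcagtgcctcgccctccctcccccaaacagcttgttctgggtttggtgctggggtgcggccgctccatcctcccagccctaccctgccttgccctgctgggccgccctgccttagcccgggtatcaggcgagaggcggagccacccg

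The Fasn window held 3 matches to the CCAAT box, which began 90, 62 and 59 bases before the start, and the 62 and 59 matches overlap each other in a single palindromic run. The Pnpla3 window held 1 match, 99 bases before the start, and the windows of Fads2 and Mid1ip1 held 0. Promoter sequences were matched for 27 of the 32 genes, the exceptions being Dgat1, Dgat2, Fads1, Scd1 and Scd2. A CCAAT box on either strand was present for 17 of these 27 genes (63.0%), against 41.1% of all 27025 genes with a promoter of the same length. The 4 windows shown do not stand for the list. Among genes at least 2 times higher in KO1 than elsewhere, Slc25a1, Acss2, Pcx, Me1, Fasn, Thrsp and Pnpla3 held the box. Tkt, Acaca and Agpat2 did not. Among genes not highest in KO1, Acacb and Pgd held it, and Mid1ip1, Fads2 and Agpat3 did not. Whether the box goes with the order of the libraries was not tested. The E-box CACGTG, which reads the same on both strands and is the core of the sites of SREBP and ChREBP, was present for 5 of the 27 genes (18.5%; Elovl5, Insig1, Mlxipl, Pcx and Slc25a1) against 8.09% of all genes. A sterol element written TCACNCCAC, or GTGGNGTGA on the other strand, was found for Mlxipl alone among the 27 genes (3.70%), against 1.44% of all genes. A carbohydrate response element written strictly as 2 copies of CACGTG spaced by 5 bases was in 0 of the 27 and in 0 of all promoters. A pattern with no match anywhere cannot separate these genes from others. These are matches of letters and not mapped binding sites.

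The depth was 12010807 to 15971900 counts per library in the wild type and 7207476 to 13088316 in the knockout, the lowest being KO2. Levels are CPM, counts scaled to library size with TMM factors, and 3 values given together for a genotype are those of its mice 1, 2 and 3 in that order. Maf1 itself, which checks the genotype labels, stood at 56.9, 66.9 and 66.5 CPM in the wild type and at 13.6, 11.6 and 22.2 CPM in the knockout. The genotypes did not overlap in Maf1, at a log2 fold change of -2.00 (SE 0.28), although its adjusted p in edgeR's quasi-likelihood test was 1.00 like that of every gene tested. With DESeq2 the adjusted p of Maf1 was 1.3e-05. Over all 16101 genes tested, 0 (0%) passed an adjusted p of 0.05 in the quasi-likelihood test and 302 (1.88%) had an unadjusted p below 0.05, and DESeq2 called 14 (0.0870%). The first principal component held 60.7% of the variance and set WT1 (-122) and KO1 (-80) apart from the other 4 libraries, so single libraries are named throughout. The main counts are also given without KO1. That library was picked because earlier results of these data had shown Fasn highest in it, not because of this component, on which WT1 lay further out.

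Adipocyte identity was clear in every library. The 13 adipocyte markers, all tested, summed to 34386 to 42226 CPM in the wild type and to 26317 to 43079 CPM in the knockout. The highest sum was in KO1 and the lowest in KO3. Gene by gene the order differed from the sum. KO2 summed to 35973 CPM, yet it was the lowest library for 7 of the 13 markers, against 25.7% of all genes tested. KO1 was the highest for 6 of 13, against 18.6% of all genes. By log2 fold change 9 of the 13 markers lay below 0, and 2, the adipokine genes Adipoq and Lep, were lower in every knockout mouse than in every wild-type mouse. Of all 16101 genes tested, 7877 lay below 0. The genotypes did not overlap for 1009 of them in either direction, and 467 of these were higher in the knockout. Adipoq, which encodes adiponectin, stood at 4544, 3476 and 3660 CPM in the wild type and at 3045, 2920.2 and 2431 CPM in the knockout.

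None of the 32 synthesis genes passed the test between genotypes. The quasi-likelihood test called 0 of 32, as did DESeq2, and 1 of 32 had an unadjusted p below 0.05. The log2 fold change, knockout over wild type, was above 0 for 27 genes and below 0 for 5, with a median of 0.34 against 0.01 over all genes tested. This excess rested on 1 mouse. KO1 was the highest library for 25 of the 32 genes, so leaving it out lowers their log2 fold changes by construction. The values without KO1 therefore describe the remaining mice and are not a separate test. Without KO1 the median was -0.38, 25 of the 32 genes lay below 0, and 8 of 32 were lower at an unadjusted p below 0.05 against 2.44% of all genes in that direction, while 0 were called (smallest adjusted p 0.79, quasi-likelihood test). The adipocyte markers had a median log2 fold change of -0.23 with all libraries and -0.71 without KO1, where 11 of 13 lay below 0 and 4 of 13 were lower at an unadjusted p below 0.05. In bulk tissue fewer cells of a type and less RNA per cell cannot be told apart, and the part of adipocyte content in the levels of the synthesis genes was not tested. With the replicate numbers as a block the median was 0.04, with 20 of 32 genes above 0 against 49.9% of all genes, and 2 of 32 (Fads1 and Fads2) at an unadjusted p below 0.05 against 4.05% of all genes.

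**Figure D1:**
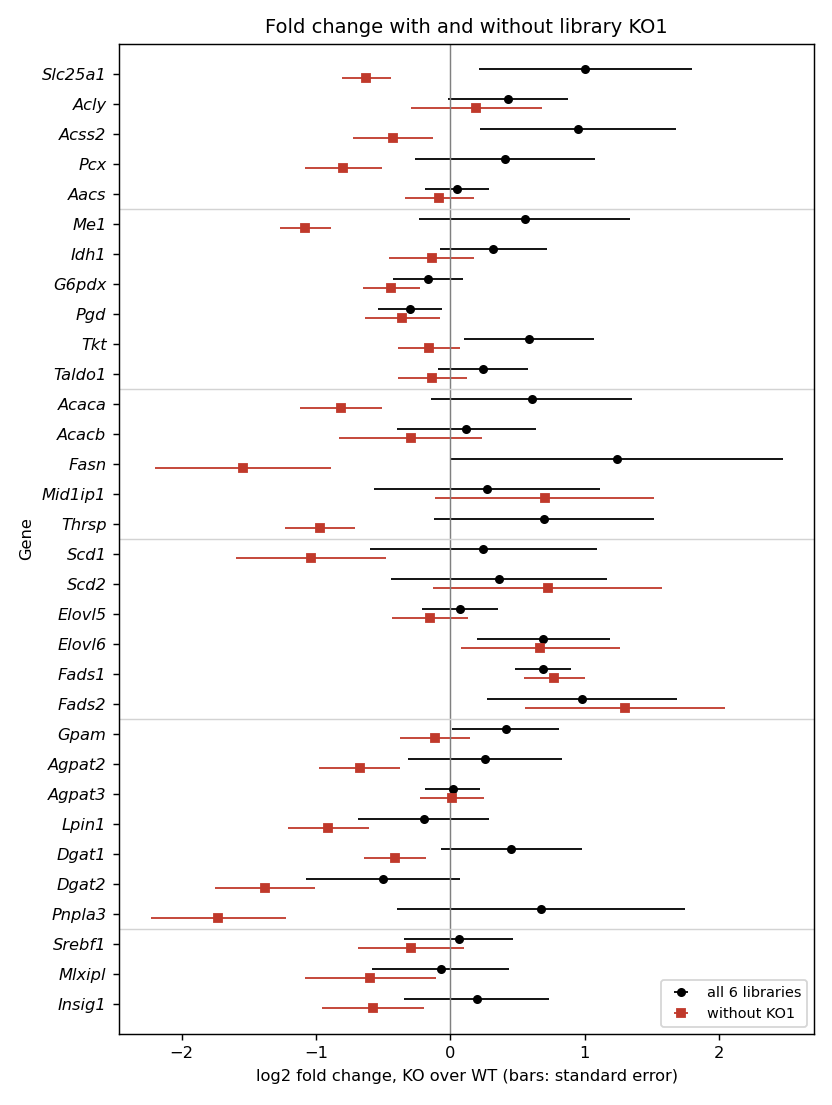
log2 fold change of each of the 32 synthesis genes (x axis, knockout over wild type; y axis, genes by role) with all 6 libraries (black circles) and without KO1 (red squares); bars are standard errors from edgeR. 27 genes lie above 0 with all libraries and 7 without KO1, Fads1, Fads2, Elovl6, Scd2 and Mid1ip1 among them.

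The spread between mice was wide, and it was shared by most of the genes. KO1 was the highest library for 25 of the 32 genes, against 18.6% of all genes tested, and for 11 of them (Slc25a1, Acss2, Pcx, Me1, Tkt, Acaca, Fasn, Thrsp, Agpat2, Dgat1 and Pnpla3) it stood at 2 times or more above every other library, against 0.913% of all genes. With scaling by library size alone KO1 was the highest for 19 of 32 (59.4%) against 11.8% of all genes. The lowest library was WT1 for 13 genes and KO2 for another 13, against 26.9% and 25.7% of all genes tested. The median gene of the list ranged 3.72-fold over the 6 mice, against 2.04-fold over all genes. On the log2 scale the median deviation of the 32 genes from their own means was 0.85 in KO1, -0.44 in KO2, -0.32 in KO3, -0.29 in WT1, 0.14 in WT2 and -0.04 in WT3, while over all genes it stayed between -0.02 and 0.01 in each library.

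**Figure D2:**
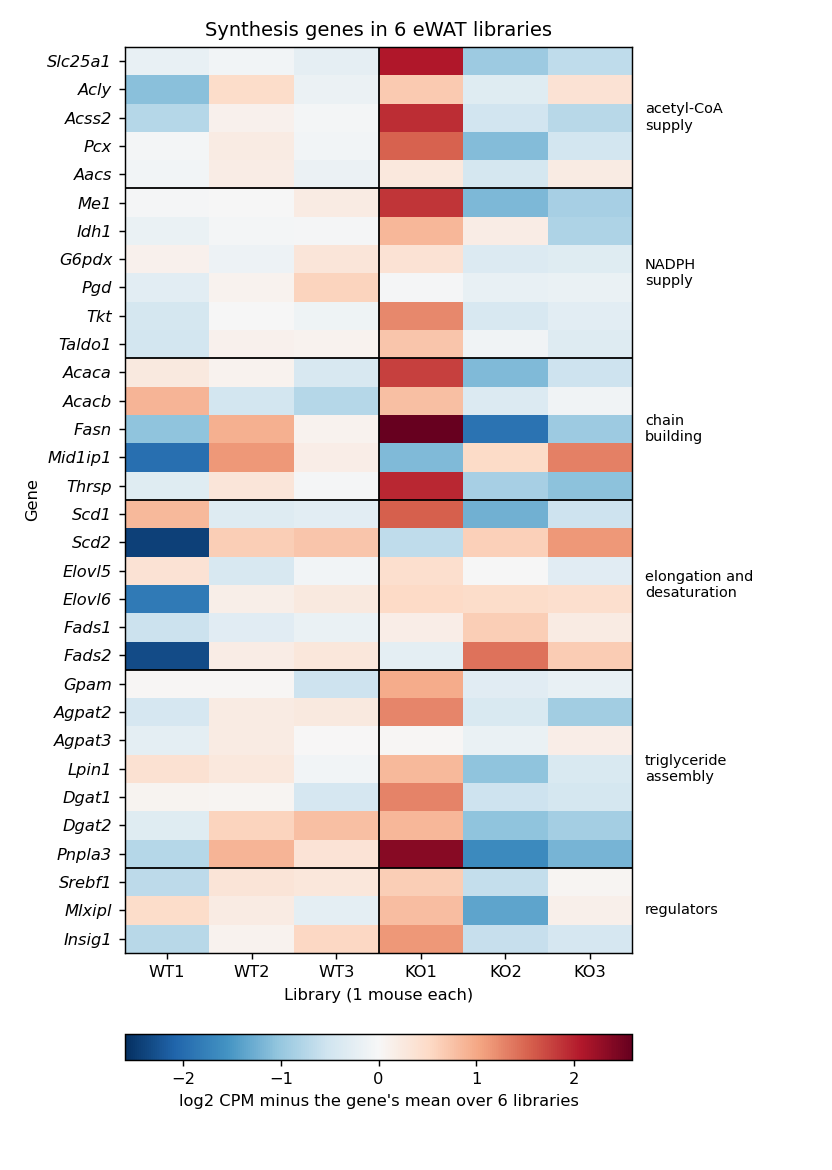
Deviation of each synthesis gene (rows, by role) in each library (columns, 1 mouse each) from the mean of its 6 libraries, in log2 CPM; red is above and blue below the mean. KO1 was the highest library for 25 of the 32 genes, while Mid1ip1, Scd2 and Fads2 were lower in WT1 and KO1 than in the other 4.

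The lists of brown and hepatocyte markers also summed highest in KO1. Of the 10 brown and beige adipocyte markers 6 were tested, and the list summed to 15.7 to 23.6 CPM in the wild type, 85.7 in KO1, 27.0 in KO2 and 13.2 in KO3. Ucp1, the uncoupling protein of brown fat, had 64 counts in KO1, 2 in KO3 and 0 in the other 4 libraries, and Cox8b stood at 43.2 CPM in KO1 against 0.888 to 6.96 in the others. The 10 hepatocyte markers, 7 of them tested, summed to 1457 to 5341 CPM in the wild type and to 6027, 2099 and 1866 CPM in the knockout, nearly all of it Cyp2e1, which adipose tissue also expresses. Alb, which encodes serum albumin, stood at 238 CPM in KO1 and at 9.29 to 18.2 CPM in the other 5 libraries. The hepatocyte list did not follow KO1 alone. By log2 fold change 7 of its 7 tested genes lay above 0 (median 2.45). Of these, 4 were higher at an unadjusted p below 0.05 in the quasi-likelihood test, against 0.963% of all genes, and 0 were called. Without KO1, 6 of 7 lay above 0 (median 0.96), and 2 were higher at that threshold, against 354 of all 16101 genes. The part of these markers in the levels of the synthesis genes was not tested.

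The acetyl-CoA group was higher in KO1 than in any other mouse for 5 of 5 genes, and Slc25a1 and Pcx were lower in KO2 and KO3 than in every wild-type mouse. Slc25a1, the mitochondrial carrier that exports citrate, stood at 107, 118 and 105 CPM in the wild type and at 519, 64.3 and 78.3 CPM in the knockout. KO1 was 4.41 times the next library. The log2 fold change was 1.00 (SE 0.79) with KO1 and -0.63 without it. Acss2, the cytosolic enzyme that makes acetyl-CoA from acetate, stood at 30.2, 54.9 and 49.0 CPM in the wild type and at 192, 35.9 and 30.7 CPM in the knockout. Only KO1 lay outside the wild-type range, at a log2 fold change of 0.95 (SE 0.73). Acly, which cleaves citrate, was less uneven, between 161 CPM in WT1 and 547 CPM in KO1 (log2 fold change 0.43, SE 0.44). Pcx, which makes the oxaloacetate that citrate synthesis uses, ranged from 310.2 CPM in KO2 to 1965 CPM in KO1, and Aacs, which activates acetoacetate for lipid synthesis, only from 55.3 to 92.4 CPM. No gene of the group passed the test.

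Among the genes of NADPH supply, malic enzyme varied most between mice and the oxidative pentose phosphate enzymes least. Me1 stood at 68.0, 69.0 and 80.0 CPM in the wild type and at 249.8, 30.7 and 37.8 CPM in the knockout. The wild-type mice lay close together, and the knockout mice fell on both sides of them. With KO1 the log2 fold change was 0.55 (SE 0.79), and without it -1.08, at an unadjusted p of 0.00159 in the quasi-likelihood test and an adjusted p of 0.79. Tkt, the transketolase of the non-oxidative branch, stood at 351, 480.2 and 447 CPM in the wild type and at 1155, 362 and 402 CPM in the knockout, and was high in KO1 alone. Tkt shares its strand with a second annotated gene that overlaps it, so some of its reads are uncertain. Pgd, the second dehydrogenase of the oxidative branch, stood at 44.5, 57.6 and 81.0 CPM in the wild type and at 53.1, 47.7 and 47.8 CPM in the knockout, so that all 3 knockout mice lay inside the wild-type range (log2 fold change -0.30, SE 0.24). It was 1 of only 2 genes of the group below 0, with G6pdx, the first dehydrogenase (-0.16, SE 0.26). Taldo1, the transaldolase, and Idh1, the cytosolic isocitrate dehydrogenase, were both highest in KO1, at 366 and 274 CPM, with log2 fold changes of 0.24 and 0.32.

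Chain building held the widest difference between mice. Fasn, the synthase that assembles palmitate (mm9 chromosome 11, 120667254 to 120685492, minus strand), stood at 514, 2022 and 1127 CPM in the wild type and at 7797, 282 and 556 CPM in the knockout. KO1 was 3.86 times the highest wild-type mouse and 27.6 times KO2, a mouse of the same genotype. The genotype difference of Fasn was 1.24 on the log2 scale (SE 1.24), -1.54 without KO1 and -0.39 with the replicate block, and none of the 3 fits called it. Acaca, the acetyl-CoA carboxylase that makes malonyl-CoA in the cytosol, followed the same order of knockout mice, at 249, 221 and 156 CPM in the wild type and at 715, 94.4 and 143 CPM in the knockout. KO2 and KO3 were below all 3 wild-type mice. The log2 fold change of Acaca was 0.61 (SE 0.75), and -0.81 without KO1. Acacb, the carboxylase of the outer mitochondrial membrane, whose malonyl-CoA restrains fatty acid oxidation, was high in WT1 (576 CPM) as well as in KO1 (536 CPM) and lay between 187 and 293 CPM in the other 4 libraries.

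The companions Thrsp and Mid1ip1, whose proteins form a complex that acts on acetyl-CoA carboxylase, differed in their order over the libraries. Thrsp, known as Spot 14, stood at 236, 363 and 284 CPM in the wild type and at 1134, 161 and 139.9 CPM in the knockout. It was high in KO1 and lower in KO2 and KO3 than in any wild-type mouse. Mid1ip1 stood at 23.3, 199.6 and 103 CPM in the wild type and at 41.0, 128 and 225 CPM in the knockout. It was lowest in WT1 and KO1 and spanned 9.67-fold, and the log2 fold change of 0.28 was smaller than its SE of 0.84.

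Elongation and desaturation was the group in which 3 of 6 genes were not highest in KO1, and the only one whose median stayed above 0 without that mouse (0.53 with KO1, 0.70 without). WT1 was the lowest library for 4 of the 6. Without both WT1 and KO1 the log2 fold changes were 0.68 for Fads1, 0.83 for Fads2 and 0.25 for Elovl6. They were 0.22 for Scd2, 0.088 for Elovl5 and -0.54 for Scd1. Fads1, the delta-5 desaturase of polyunsaturated fatty acids, stood at 107, 127 and 139 CPM in the wild type and at 176, 244 and 182 CPM in the knockout. The genotypes did not overlap, with means of 124 ± 16.4 and 200.4 ± 37.8 CPM (SD, n = 3 each). The log2 fold change of Fads1 was 0.69 (SE 0.21), with an unadjusted p of 0.0151 and an adjusted p of 1.00 in the quasi-likelihood test. It lay between 0.53 and 0.79 when each library was left out in turn, was 0.68 with the replicate block, and had an adjusted p of 0.53 in DESeq2. Fads2, the delta-6 desaturase encoded next to Fads1 on the opposite strand of chromosome 19, stood at 20.6, 118 and 127 CPM in the wild type and at 87.2, 274 and 163 CPM in the knockout. WT1 was far below the rest, KO1 lay below WT2 and WT3, and the log2 fold change of 0.98 carried an SE of 0.71.

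Elovl6, which lengthens palmitate to stearate, was the other gene whose genotypes did not overlap, at 10.9, 43.6 and 46.2 CPM in the wild type and 56.0, 54.2 and 52.7 CPM in the knockout. The 3 knockout mice were nearly equal, and the wild-type spread came from WT1. The log2 fold change was 0.69 (SE 0.50), and 0.27 was the smallest value when each library was left out in turn. Of all genes tested 2.90% did not overlap with the knockout higher, which sets the scale for these 2 of 32. Beside them, the smooth muscle markers (10 of 10 tested) summed to 823 to 1141 CPM in the wild type and to 3181, 6610 and 844 CPM in the knockout, with 7 of 10 higher at an unadjusted p below 0.05, against 0.963% of all genes in that direction. Their part in the Fads1 and Elovl6 levels was not tested.

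The stearoyl-CoA desaturases, which place the first double bond in stearate and palmitate, differed from each other in level and in order. Scd2 stood at 42.3, 356 and 377 CPM in the wild type and at 145, 354 and 499 CPM in the knockout, lowest in WT1 and KO1. Scd1, chosen for full values after they were seen, stood at 44622, 19602 and 20319 CPM in the wild type and at 72761, 10387 and 17086 CPM in the knockout, highest in KO1 and WT1. Per kilobase of exon, the level of Scd1 was 1188 times that of Scd2 in WT1 and 565 times in KO1, but only 62.2, 60.8, 33.1 and 38.6 times in WT2, WT3, KO2 and KO3. Neither gene passed the test (log2 fold change 0.37, SE 0.80 for Scd2, and 0.25, SE 0.85 for Scd1). Scd2 overlaps a second annotated gene on its own strand, so its count in the overlap is uncertain. Elovl5, which elongates polyunsaturated chains, ranged only from 83.5 to 149.6 CPM.

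Mid1ip1, Scd2 and Fads2 were low in the libraries where transcripts of the neighbouring reproductive tract were low. The epididymis and testis list held 15 genes, 9 of them tested, and summed to 19.0, 5346 and 3732 CPM in the wild type and to 796, 5307 and 6532 CPM in the knockout. Crisp1, an abundant secreted protein of the epididymis, stood at 8.69 CPM in WT1 and 795 CPM in KO1, and between 1518 and 4173 CPM in the other 4 libraries. The protamine gene Prm1 had 0 counts in WT1 and KO1 and 104 to 2214 counts in the others. Elovl6 shared this order only in part, being lowest in WT1 (10.9 CPM) but highest in KO1 (56.0 CPM). The part of this tissue in the levels of Mid1ip1, Scd2, Fads2 and Elovl6 was not tested.

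**Figure D3:**
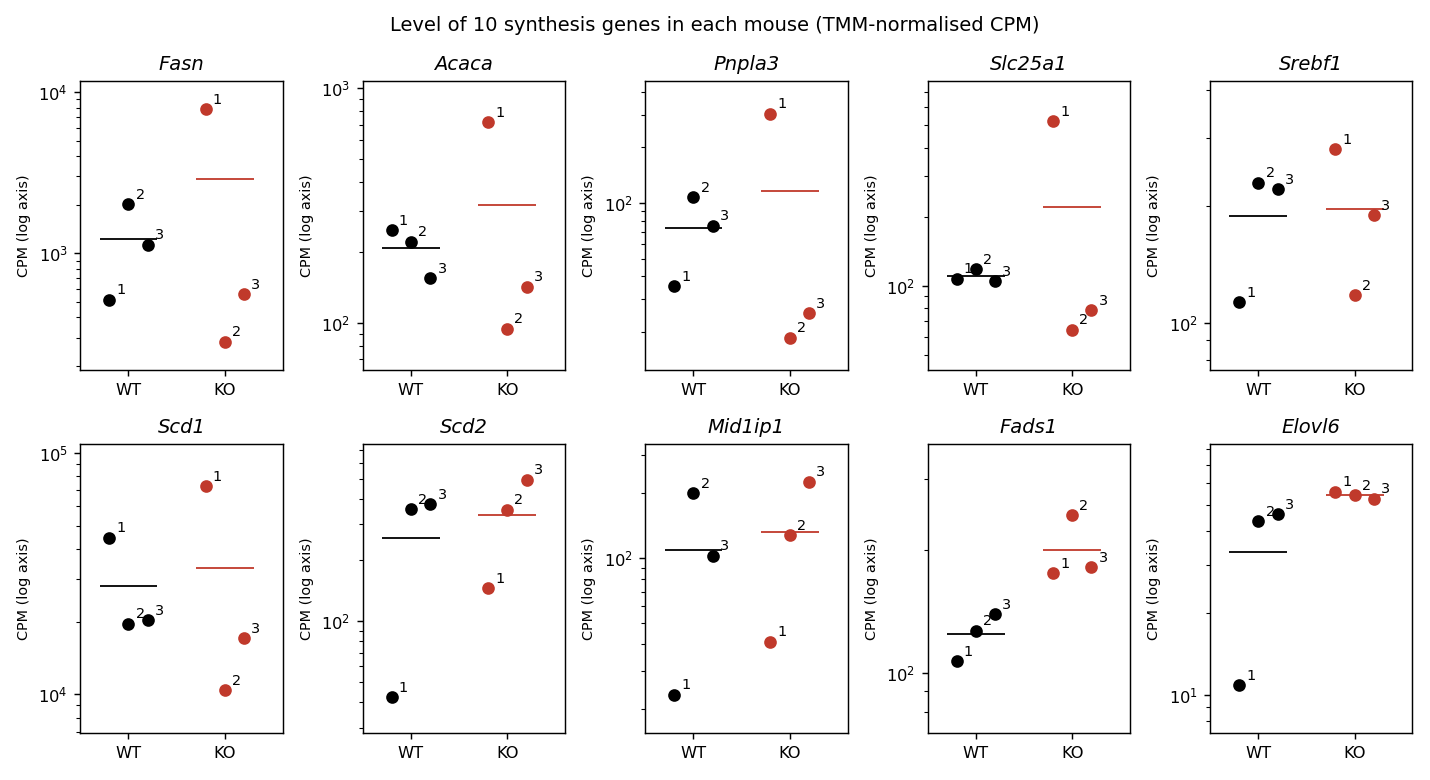
CPM on a log axis for 10 synthesis genes in each wild-type (black) and knockout (red) mouse, numbered by replicate; horizontal lines are genotype means. Fasn reached 7797 CPM in KO1 and 282 in KO2, and only Fads1 and Elovl6 had every knockout mouse above every wild-type mouse.

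In triglyceride assembly 6 of 7 genes were highest in KO1, and 6 of 7 lay below 0 without it. Pnpla3, a lipid droplet protein also called adiponutrin that is induced by feeding, stood at 35.3, 108 and 75.4 CPM in the wild type and at 305, 18.6 and 25.3 CPM in the knockout. It spanned 16.4-fold, second in the list to Fasn, and both KO2 and KO3 were below every wild-type mouse. The log2 fold change was 0.68 (SE 1.07) with KO1 and -1.73 without it. Dgat2, which with Dgat1 adds the last acyl chain, stood at 196, 367 and 419 CPM in the wild type and at 441, 119 and 133 CPM in the knockout. It had the lowest log2 fold change of the 32 genes, -0.50 (SE 0.58). Without KO1, its highest library, the value falls by construction. It was then -1.38, with an unadjusted p of 0.0115 and an adjusted p of 0.79 in the quasi-likelihood test. Dgat1 was above 0 with KO1 (0.45, SE 0.53) and at -0.41 without it.

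The earlier steps of the assembly were likewise uneven. Gpam, the mitochondrial acyltransferase that starts glycerolipid synthesis, stood at 480.4, 486 and 326 CPM in the wild type and at 921, 383 and 414 CPM in the knockout. Only KO1 lay outside the wild-type range. Agpat2, the acyltransferase of the next step and a gene of congenital lipodystrophy in humans, stood at 86.8, 137 and 141 CPM in the wild type and at 284, 89.4 and 63.4 CPM in the knockout. Agpat3 was the steadiest of the 32 genes, between 158 and 219 CPM over all mice (1.39-fold, log2 fold change 0.02, SE 0.20). Lpin1, the phosphatidate phosphatase, ranged from 227 CPM in KO2 to 849.5 CPM in KO1, with a log2 fold change of -0.20 (SE 0.49).

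The 3 regulators were also highest in KO1. Srebf1, which encodes SREBP-1, stood at 113, 230.3 and 222 CPM in the wild type and at 282, 118 and 189.6 CPM in the knockout. KO1 was only 1.22 times the highest wild-type mouse, WT1 and KO2 were lowest, and the log2 fold change was 0.06 (SE 0.40). Mlxipl, which encodes ChREBP, stood at 40.6, 34.0 and 24.3 CPM in the wild type and at 50.4, 11.2 and 32.1 CPM in the knockout, at a log2 fold change of -0.07 (SE 0.51). Insig1, which holds the SREBP complex in the endoplasmic reticulum and is itself an SREBP target, stood at 38.7, 68.2 and 92.6 CPM in the wild type and at 139, 42.2 and 47.0 CPM in the knockout. Its KO1 level was 3.30 times that of KO2, and the genotypes overlapped.

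Per kilobase of exon, Scd1 was by far the most abundant of the 32 genes, at a mean of 5827 CPM per kilobase in the wild type and 6909 in the knockout. Thrsp (231 in the wild type, 375 in the knockout), Pcx (163 and 216), Dgat2 (145 and 103) and Fasn (124 and 292) came next in the wild type. Acss2 and Elovl6 were the lowest in the wild type, at 4.40 and 5.64 CPM per kilobase, and Mlxipl and Pgd in the knockout, at 5.82 and 7.68. The length merges all annotated exons of a gene, 10163 bases for Acss2 and 5951 for Elovl6, so the ranking depends on it. By CPM alone, Acss2 (44.7 in the wild type) was above Elovl6 (33.6). Because of Scd1, the CPM summed over the 32 genes were 50505, 28463 and 27434 in the wild type and 93205, 15346 and 23075 in the knockout. Without Scd1 the sums were 5883, 8861 and 7115 in the wild type and 20444, 4958 and 5989 in the knockout. KO1 was the highest library by either sum. WT1 came next when Scd1 was counted, but without Scd1 it was below all libraries other than KO2.

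**Figure D4:**
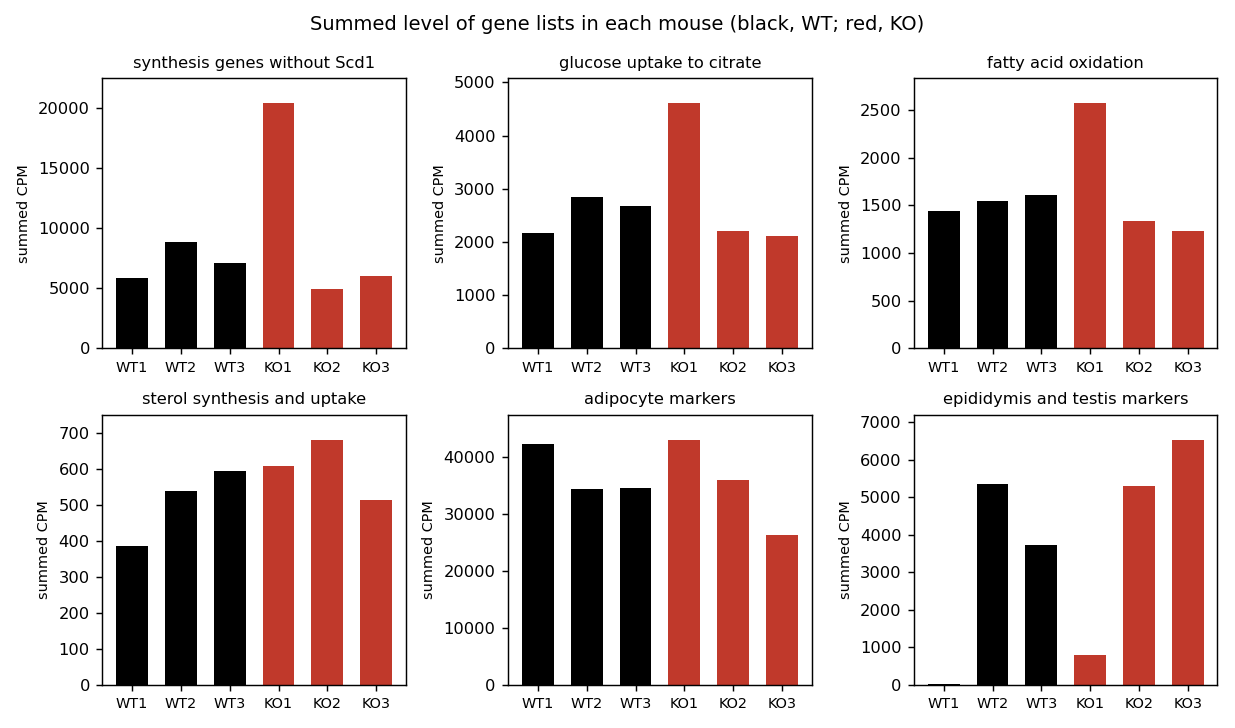
Summed CPM of 6 gene lists in each library (bars from 0, black wild type, red knockout, 1 mouse each). KO1 was highest for the synthesis genes without Scd1 (20444 CPM), for glucose uptake to citrate (4613) and for fatty acid oxidation (2576), but not for sterol synthesis, and the epididymis and testis list was lowest in WT1 (19.0) and KO1 (796).

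Neighbouring pathways were read from 5 lists, with 104 of their 110 genes tested. In each list 0 genes were called by the quasi-likelihood test or by DESeq2, and 0 had an unadjusted p below 0.05. The list from glucose uptake to citrate resembled the synthesis genes, with 12 of 21 genes highest in KO1 and a median log2 fold change of 0.23, or -0.22 without KO1. Its 2 genes with the smallest p were Pfkp, the platelet-type phosphofructokinase (100.1, 75.7 and 98.8 CPM in the wild type against 61.3, 78.9 and 74.0 in the knockout), and Brp44l, also called Mpc1, a subunit of the mitochondrial pyruvate carrier (25.0, 30.2 and 34.3 against 63.0, 45.8 and 25.6). The genotypes overlapped for both.

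Fatty acid oxidation, the opposite pathway, was also highest in KO1, for 14 of 16 genes tested. Its summed CPM were 1443, 1547 and 1604 in the wild type and 2576, 1332 and 1230 in the knockout, with a median log2 fold change of 0.18, or -0.21 without KO1. Ppargc1a, a coactivator of mitochondrial genes, stood at 7.70 and 6.48 CPM in WT2 and WT3 and at 18.7, 10.7 and 9.47 CPM in the knockout, with WT1 between KO1 and KO2. Etfb, which passes electrons from acyl-CoA dehydrogenases, stood at 72.7, 102 and 90.4 CPM in the wild type and 115, 177 and 74.3 in the knockout, and was highest in KO2.

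Sterol synthesis and uptake, the program of SREBP-2, did not share the KO1 pattern. Only 5 of its 21 tested genes were highest in KO1, against 18.6% of all genes, and 16 of 21 were lowest in WT1, against 26.9% of all genes. The sums were 386, 539 and 595 CPM in the wild type and 609, 682 and 515 CPM in the knockout. The median log2 fold change was 0.15, and 0.22 without KO1. Pmvk, phosphomevalonate kinase, stood at 14.4, 22.3 and 18.8 CPM in the wild type and at 45.6, 22.9 and 21.2 in the knockout. Ebp, a late sterol isomerase, stood at 38.3, 40.5 and 43.7 CPM in the wild type and at 55.2, 55.3 and 39.7 in the knockout, with KO3 inside the wild-type range.

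The remaining enzymes of acyl chain and glycerolipid metabolism (26 of 30 genes tested) had a median log2 fold change of 0.13, and 9 of 26 were highest in KO1. Tecr, the enoyl reductase of the elongation cycle, stood at 105, 166 and 157 CPM in the wild type and at 174, 186 and 203 CPM in the knockout. It was the 1 gene of the 26 tested whose genotypes did not overlap, at a log2 fold change of 0.40 (SE 0.23). Over all genes tested, 2.90% did not overlap with the knockout higher. Elovl7 was low throughout, at 0.956 to 3.28 CPM in the wild type and 2.96 to 5.22 CPM in the knockout. The 20 transcription factors and insulin signalling genes varied least, with a median range of 1.70-fold and a median log2 fold change of -0.03, and 6 of 20 were highest in KO1. Irs2, an insulin receptor substrate, stood at 274, 114 and 125 CPM in the wild type and at 117, 62.4 and 130.3 CPM in the knockout, and Mlx, the partner of ChREBP, stayed between 18.4 and 26.1 CPM.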

How the data were processed

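Total RNA of eWAT from 3 wild-type and 3 Maf1-/- mice was depleted of ribosomal RNA and sequenced with a strand-specific dUTP protocol. The expected count values (whole for every gene) were deposited by the authors, who aligned the reads with GSNAP to mm9 and counted uniquely mapped reads with HTSeq, as the submitters' notes and design text state. Lines that are not genes (2), 6 columns of normalized counts and the authors' own edgeR fold changes and p-values were not used. Tables of Pol III loci were not used here.

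In edgeR 4.0.16 (R 4.3.3), low counts were removed by filterByExpr, TMM factors were applied, and genotype was tested by quasi-likelihood, adjusting p-values by Benjamini and Hochberg over 16101 genes at a threshold of 0.05. DESeq2 1.42.0 served as an alternative. The scripts were tested on simulated counts, drawn separately for each gene and library. Such counts lack the difference from the other libraries that WT1 and KO1 share, so they do not show how the test behaves with it. Gene positions and exon lengths are from gencode vM1 in mm9, with all annotated exons of a gene merged. Promoters are from RefSeq, GRCm38.p6.

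The members and lists were chosen with earlier results of these data known. Values in every library are given for Fasn, Acaca, Srebf1, Maf1 and, per role, for the 2 genes with the smallest p and the 2 with the widest range, and for 2 genes per pathway list with the smallest p. Deviations from the group means correlated by 0.66, 0.36 and 0.34 in the same-numbered pairs. All were above 0.1, the minimum set for treating the numbers as pairs in the replicate block. WT2 correlated more with KO3 (0.47) than with KO2, and WT3 with KO2 (0.29) was also above 0.1. The check therefore cannot tell which of these libraries belong together, and the block is given as an alternative only. The labels do not say what the numbers stand for.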

Additional observations from a re-analysis of the deposited data

How the results depend on the processing

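The quasi-likelihood test called 0 genes under every scaling, filter, block and left-out library tried, with 302 of 16101 genes at an unadjusted p below 0.05 in the test as reported and 152 to 773 under the alternatives, while DESeq2 called 14, none of them a synthesis gene. Of the synthesis genes, 1 was at an unadjusted p below 0.05, against 9 without KO1 (4.63% of all genes there) and 13 without both WT1 and KO1 (4.62% of all genes there). Of the 9, 8 were lower in the knockout and Fads1 was higher. Of the 13, only Fads1 and Fads2 were higher. KO1 was the highest library for 25 of the 32 genes, so leaving it out lowers their log2 fold changes by construction. The 9 and 13 are therefore not a separate test. The median log2 fold change of the synthesis genes (0.34) ran from -0.38 to 0.58 when each library was left out in turn, and was -0.38 without KO1 and -0.42 without both WT1 and KO1, against a spread between replicates of 0.53. With the replicate block it was 0.04, and 652 genes had an unadjusted p below 0.05. The block turned the sign of Agpat2 (-0.065), Fasn (-0.39), Me1 (-0.19), Pcx (-0.080), Pnpla3 (-0.64), Scd1 (-0.16) and Thrsp (-0.086) and changed no call. Scaling by library size alone turned Agpat3 (-0.016) and Srebf1 (-0.0074), and leaving out the filter turned Agpat3 (-0.0075). Leaving out 1 library turned 20 of the 32 genes for KO1, 2 and 4 for KO2 and KO3, and 6, 2 and 2 for WT1, WT2 and WT3, over ranges of log2 fold change of Aacs (-0.083 to 0.25), Acaca (-0.81 to 1.04), Acacb (-0.30 to 0.79), Acss2 (-0.43 to 1.35), Agpat2 (-0.68 to 0.61), Agpat3 (-0.10 to 0.13), Dgat1 (-0.41 to 0.76), Elovl5 (-0.15 to 0.30), Fasn (-1.54 to 1.81), Gpam (-0.11 to 0.63), Idh1 (-0.14 to 0.65), Insig1 (-0.58 to 0.51), Lpin1 (-0.91 to 0.14), Me1 (-1.08 to 0.99), Mid1ip1 (-0.37 to 1.06), Mlxipl (-0.60 to 0.33), Pcx (-0.80 to 0.82), Pnpla3 (-1.73 to 1.18), Scd1 (-1.04 to 0.74), Scd2 (-0.14 to 0.74), Slc25a1 (-0.63 to 1.44), Srebf1 (-0.29 to 0.33), Taldo1 (-0.13 to 0.44), Thrsp (-0.97 to 1.13) and Tkt (-0.16 to 0.87). Acly kept its sign there (0.12 to 0.85). Without both WT1 and KO1, the genes that turned were Aacs (-0.11), Acaca (-0.66), Acly (-0.12), Acss2 (-0.64), Agpat2 (-0.87), Agpat3 (-0.10), Dgat1 (-0.32), Fasn (-1.91), Gpam (-0.022), Idh1 (-0.18), Insig1 (-0.85), Me1 (-1.12), Pcx (-0.83), Pnpla3 (-2.05), Scd1 (-0.54), Slc25a1 (-0.64), Srebf1 (-0.55), Taldo1 (-0.30), Thrsp (-1.10) and Tkt (-0.28). The cause was not tested. KO2, with 7207476 counts, limits the precision of the lowest levels.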
